A study of Mus musculus with 12 samples.

Results

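Fibril-forming collagens, the type IV collagens of basement membranes and the secreted proteins that trim, cross-link and organise collagen were followed in spheroids of mouse hepatocytes over culture. The set was listed by gene symbol: the fibril-forming chains Col1a1, Col1a2, Col3a1 and Col5a2, the type IV chains Col4a1 and Col4a2, the propeptide-processing enhancer Pcolce2, the cross-linking enzymes Lox and Loxl2, and the matricellular protein gene Postn. For each symbol the probe set with the highest mean was taken. Of the 10 listed genes, 9 had a value among the 11861 genes analysed, and Loxl2 was not analysed here because it had no row in the value table used.

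Total RNA was read on 12 expression arrays. The cells were frozen hepatocytes of C57BL/6 mice, combined in 4 preparations of 3 mice each, 2 male and 2 female, which aggregated by themselves into spheroids on plates to which cells hardly attach. RNA was taken from every preparation at culture days 1, 7 and 14, which gave 6 groups with 2 arrays in each. All groups share the strain and the culture, and none was treated. Age is not given in the sources used here, and because each preparation is a pool, differences between single mice cannot be seen. The preparations are called male 1, male 2, female 1 and female 2 below.

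Collagens are secreted as procollagens whose chains fold into a triple helix in the endoplasmic reticulum. Outside the cell, proteinases remove the propeptides, which Pcolce2 assists, fibrils form, and lysyl oxidases such as Lox convert lysine side chains so that neighbouring molecules become cross-linked. In liver, types I, III and V form fibrils and are made mainly by stellate cells and portal fibroblasts, whereas type IV is a network collagen of basement membranes and of the thin matrix along the sinusoids. Hepatocytes themselves contribute comparatively little fibrillar collagen, and the fibrillar collagens are the main scar proteins of liver fibrosis.

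The values are log2 levels, so a difference of 1 is a doubling. Array medians lay between 7.47 and 7.53, and both arrays of a group correlated at 0.984 to 0.99. The mean level of 10 hepatocyte markers stayed between 11.98 and 12.13 on all 12 arrays, and 0 of the 10 passed the limma test between any 2 days, with at most 1 at an unadjusted p under 0.05 and 1 lower at day 14 than at day 1 with a trended and robust spread. Each probe set in the table reached 4.79 or more on at least 1 array, and levels under 4.79 are called dim here. Levels of different genes come from different probes and were not set against each other.

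From day 1 to day 14, 6 of the 9 measured genes fell, namely Col1a1, Col1a2, Col3a1, Pcolce2, Lox and Postn, by 2.21-fold to 7.92-fold. None of the 9 rose, and the type IV genes Col4a1 and Col4a2 read higher at day 14 in 4 of 4 preparations without passing the test. Among all 11861 genes, 6.8% fell and 7.59% rose at the same threshold (adjusted p under 0.05, limma, Benjamini-Hochberg). The median change of the 9 genes was -1.60, and that of all genes was 0.01. For 7 of the 9, all 4 arrays of day 14 lay below all 4 of day 1, which held for 7.57% of all genes. The genes and the lists below were chosen with earlier results of these data known. Counts set beside shares of all genes are therefore a description and not a test. At both later days they include Pcolce2, which reached 4.79 at day 1 only.

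By the median change, most of the decline was already present at day 7. From day 1 to day 7, 6 of 9 genes fell and 0 rose, against 1.98% and 2.74% of all genes, and for 7 of 9 the 4 arrays of each day did not overlap, against 5.19% of all genes that were lower without overlap. The 6 were Col1a1, Col1a2, Col3a1, Col5a2, Pcolce2 and Lox, and the median change of the 9 was -1.42. From day 7 to day 14, 0 of the 9 passed the test in limma, where 0.489% of all genes did. At an unadjusted p under 0.05 there were 3 of 9, against 13.7% of all genes, and 0 passed with a trended and robust spread. Both comparisons with day 1 share the day 1 arrays, so their agreement is not independent. With any 1 preparation left out, the count for day 7 was 3 without female 1, female 2 or male 2 and 2 without male 1, and the count for day 14 against day 1 was 5 to 6.

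**Figure D1:**
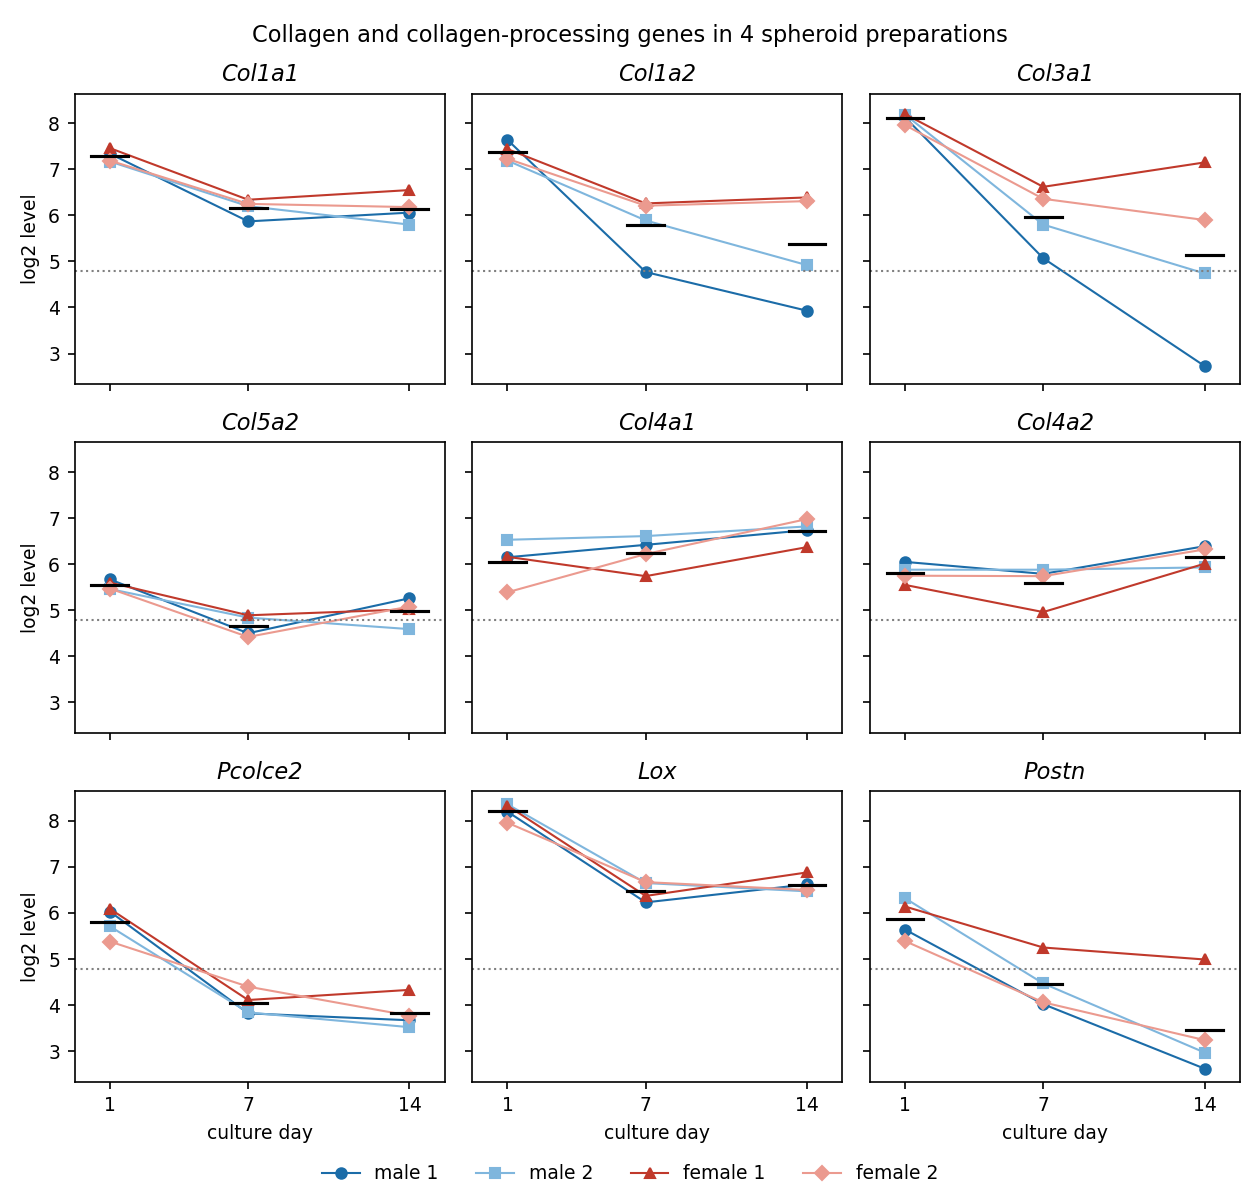
Log2 level (vertical axis) against culture day (horizontal axis) for the 9 measured genes, with 1 line per preparation, black bars for the mean of 4 preparations and a dotted line at 4.79, under which levels are called dim. Col1a1, Col1a2, Col3a1, Col5a2, Pcolce2, Lox and Postn lie lower at day 14 than at day 1 in all 4 preparations. Col1a2, Col3a1 and Postn spread apart between preparations by day 14.

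Col1a1, which encodes the more abundant chain of type I collagen, was measured at 7.34 in male 1, 7.17 in male 2, 7.46 in female 1 and 7.19 in female 2 at day 1. At day 7 the levels were 5.87, 6.20, 6.34 and 6.25 in the same order, and at day 14 they were 6.06, 5.80, 6.55 and 6.18. All day 1 levels lay above all later ones, and days 7 and 14 overlapped. Each SE given with a change is that of the fit, in which every sex and day has its own mean. Such an SE leaves out the difference between the sexes and is not the spread of the 4 preparation changes. Col1a1 fell to day 7 (-1.13 ± 0.12 SE, 4 preparations, adjusted p = 0.0031) and to day 14 (-1.14 ± 0.12, adjusted p = 0.000816). Between days 7 and 14 the change was -0.02 ± 0.12 (95% interval -0.29 to 0.26). The call to day 7 was lost without male 1 (adjusted p = 0.0728), and the call to day 14 was kept with any 1 preparation left out.

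Col1a2, the other chain of type I collagen, was at 7.64 and 7.19 in male 1 and male 2 and at 7.44 and 7.23 in female 1 and female 2 at day 1. By day 7 it was at 4.77, 5.89, 6.26 and 6.21, and by day 14 at 3.93, 4.92, 6.39 and 6.31. The females therefore stayed at their day 7 level, whereas both males went on to lower levels, and male 1 was dim at both later days. Over the 4 preparations the mean was 7.38 ± 0.21 (SD, n = 4) at day 1 and 5.39 ± 1.18 at day 14. Col1a2 fell to day 7 (-1.59 ± 0.27 SE, adjusted p = 0.0175) and to day 14 (-1.99 ± 0.27, 3.97-fold, adjusted p = 0.00256). Without female 1 or female 2 the call to day 7 was lost (adjusted p = 0.153 and 0.145), as it was with the sexes fitted together (0.148), and without female 1 that to day 14 was lost (0.0515).

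Col3a1, the single chain of type III collagen, which forms thin fibrils with type I, showed the widest range. It was at 8.13, 8.19, 8.20 and 7.96 at day 1, in the order male 1, male 2, female 1 and female 2. It was at 5.07, 5.80, 6.62 and 6.36 at day 7 and at 2.73, 4.74, 7.15 and 5.90 at day 14. The 4 preparations spanned 0.24 at day 1 and 4.41 at day 14, where both males were dim and female 1 was highest. The change to day 14 was -2.99 ± 0.43 (SE of the fit), a 7.92-fold fall (adjusted p = 0.00306). It lay between -3.47 and -2.50 with any 1 preparation left out. Single preparations changed by -5.39 in male 1, -3.44 in male 2, -1.05 in female 1 and -2.06 in female 2. The SE of the fit does not hold the gap between the sexes in these changes. The change to day 7 was -2.15 ± 0.43 (adjusted p = 0.0299), and this call was lost whichever preparation was left out (adjusted p from 0.0686 to 0.15), with the sexes fitted together (0.17) and with a trended and robust spread (0.051).

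Col5a2 encodes a chain of type V collagen, which sits inside type I fibrils and limits their width. At day 1 it was at 5.67, 5.46, 5.60 and 5.47 in male 1, male 2, female 1 and female 2. At day 7 it was at 4.50, 4.84, 4.89 and 4.42, and at day 14 at 5.26, 4.59, 5.02 and 5.08. Day 1 did not overlap with either later day, but 3 of 4 preparations were higher at day 14 than at day 7. Col5a2 fell by 0.89 ± 0.17 (SE) to day 7 (adjusted p = 0.0228), a call lost whichever preparation was left out (adjusted p from 0.0658 to 0.158). Its day 14 change of -0.56 ± 0.17 missed the threshold (adjusted p = 0.0546). It passed with arrays centred on their median (0.0494), after a second quantile normalization (0.0436), with the sexes together (0.0343) and without the single day 14 array of male 1 (-0.73, adjusted p = 0.0204).

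**Figure D2:**
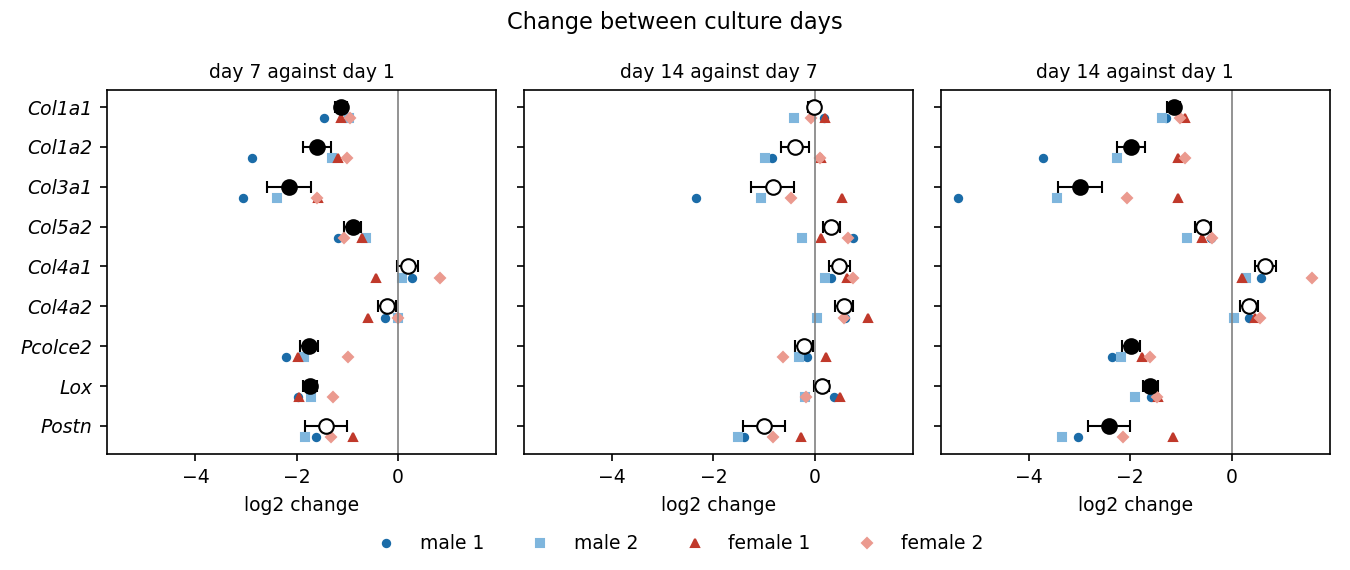
Log2 change (horizontal axis) of the 9 genes in 3 comparisons of culture days, with large circles for the fitted mean change and bars of 1 SE, filled where the adjusted p was under 0.05, and small coloured symbols for each preparation. Filled circles appear for 6 genes at day 7 against day 1, for 0 at day 14 against day 7 and for 6 at day 14 against day 1, all to the left of 0.

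The promoters of Col1a2 and Col3a1 are shown because these genes kept the closest pattern among the fibril-forming members, with a Pearson r of 0.972 over the 12 arrays (4 preparations at 3 days, so the points are not independent). Each window runs from 250 bases before the RefSeq start to 30 bases after it, on GRCm38.p6 and on the plus strand, chr6:4505368-4505647 for Col1a2 and chr1:45311288-45311567 for Col3a1. Capitals mark the places where a motif was matched on the plus strand or, reversed and complemented, on the minus strand. Motifs searched were the CCAAT box of that name, the TATA box with the letters TATAAA, the GC box, spelled GGGCGG, and the SMAD element, for which the search word was CAGACA. No matches overlap.
Col1a2: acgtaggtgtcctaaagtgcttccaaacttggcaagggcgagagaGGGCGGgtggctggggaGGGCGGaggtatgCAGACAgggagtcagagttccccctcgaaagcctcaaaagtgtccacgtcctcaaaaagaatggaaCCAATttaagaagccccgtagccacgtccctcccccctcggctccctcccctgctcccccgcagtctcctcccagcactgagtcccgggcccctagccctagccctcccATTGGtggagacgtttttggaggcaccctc
Col3a1: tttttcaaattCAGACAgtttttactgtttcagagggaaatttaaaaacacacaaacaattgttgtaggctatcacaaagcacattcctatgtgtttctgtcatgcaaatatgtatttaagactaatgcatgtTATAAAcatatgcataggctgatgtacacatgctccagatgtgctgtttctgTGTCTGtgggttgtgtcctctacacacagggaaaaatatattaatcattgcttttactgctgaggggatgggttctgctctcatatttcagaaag
The Col1a2 window holds 2 GC boxes starting at -205 and -188, a SMAD element at -175, a CCAAT box at -109 and a reversed CCAAT box at 1, counted from 1 at the RefSeq start. The Col3a1 window holds SMAD elements at -239 and, reversed, at -65, and a TATA box at -117. The windows differ in composition, with a GC content of 61.1% for Col1a2 and 36.1% for Col3a1, around a median of 52.5% over 32851 promoters. Among all these promoters, in windows of the same length, 36.1% hold the CCAAT box, 13.1% the TATA box, 34.7% the GC box and 19.6% the SMAD element. The SMAD element is the only one of these 4 motifs in both windows, and the letters alone do not show that a factor binds there.

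Pcolce2 binds procollagen and speeds the removal of its C-terminal propeptide, the step that lets fibrils form. It was at 6.03 in male 1, 5.71 in male 2, 6.09 in female 1 and 5.38 in female 2 at day 1, at 3.82, 3.84, 4.11 and 4.40 at day 7, and at 3.67, 3.52, 4.33 and 3.77 at day 14. All later levels were dim and below all day 1 levels. Pcolce2 thus reached 4.79, the level that every probe set in the table reached on at least 1 array, at day 1 only. If the table was cut at that level, Pcolce2 entered through day 1 alone, and its fall is then partly fixed in advance. Pcolce2 fell to day 7 (-1.76 ± 0.18 SE, 3.39-fold, adjusted p = 0.00257) and to day 14 (-1.98 ± 0.18, 3.94-fold, adjusted p = 0.000376). The call to day 7 was lost without male 1 (adjusted p = 0.0835) or male 2 (0.0592), and that to day 14 was kept with any 1 preparation left out.

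Lox, the founding lysyl oxidase, had the smallest adjusted p of the set. It was at 8.20, 8.36, 8.33 and 7.96 at day 1 in male 1, male 2, female 1 and female 2, at 6.23, 6.65, 6.37 and 6.67 at day 7, and at 6.62, 6.47, 6.88 and 6.50 at day 14. The 4 preparations spanned 0.44 at day 7 and 0.41 at day 14, where Col1a2 spanned 2.46 and Col3a1 4.41. Lox fell to day 7 (-1.73 ± 0.14 SE, 3.32-fold, adjusted p = 0.00219) and to day 14 (-1.60 ± 0.14, 3.03-fold, adjusted p = 0.000346). Both calls held with any 1 preparation left out (adjusted p up to 0.0422 and 0.0148). From day 7 to day 14 the change was 0.13 ± 0.14 (95% interval -0.19 to 0.45).

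Postn encodes periostin, a matricellular protein that binds collagen and supports its cross-linking. It was at 5.64, 6.32, 6.14 and 5.39 at day 1, at 4.02, 4.47, 5.25 and 4.06 at day 7, and at 2.62, 2.97, 4.99 and 3.24 at day 14, in the order male 1, male 2, female 1 and female 2. Each preparation was lower at day 7 than at day 1 and lower again at day 14, and only female 1 was not dim at either later day. Postn fell by 2.42 ± 0.42 (SE) to day 14, 5.34-fold (adjusted p = 0.00667), a call lost without male 1 (adjusted p = 0.0901) or male 2 (0.0952). The changes of -1.42 ± 0.42 to day 7 and -0.997 ± 0.42 from day 7 to day 14 did not pass (adjusted p = 0.1 and 0.339). Fitted as changes within preparations (the replicate block), both passed (adjusted p = 0.00707 and 0.0497).

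The type IV genes took another course. Col4a1 was at 6.15, 6.53, 6.16 and 5.39 at day 1 in male 1, male 2, female 1 and female 2, at 6.42, 6.61, 5.74 and 6.22 at day 7, and at 6.74, 6.82, 6.37 and 6.98 at day 14. The days overlapped, and the day 14 level was the highest of the 3 days in all 4 preparations. The change from day 1 to day 14 was 0.67 ± 0.21 (SE, 95% interval 0.20 to 1.14, adjusted p = 0.0647). It passed without female 1 (1.01, adjusted p = 0.016), with a trended and robust spread (0.0206) and among genes with a group mean of at least 6 (0.0443). To day 7 the change was 0.19 ± 0.21 (adjusted p = 0.689).

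Col4a2, whose product joins that of Col4a1 in the same triple helix, was at 6.05, 5.88, 5.55 and 5.75 at day 1, at 5.79, 5.88, 4.96 and 5.74 at day 7 and at 6.39, 5.93, 6.01 and 6.32 at day 14, in the same order of preparations. Female 1 at day 7 stood below the other arrays of that day, which lay between 5.74 and 5.88. Its day 14 levels all lay above those of day 7, a pattern that 2.86% of all genes shared in this direction and that no other of the 9 genes showed between these days. The change from day 7 to day 14 was 0.57 ± 0.18 (SE, 95% interval 0.16 to 0.97, adjusted p = 0.2), and that from day 1 to day 14 was 0.35 ± 0.18 (adjusted p = 0.233). The 2 genes lie head to head on chromosome 8: their RefSeq promoter windows of 300 bases are on opposite strands and share 78 bases. Their levels correlated at 0.67 over the 12 arrays, and each correlated negatively with Col3a1 (-0.57 for Col4a1 and -0.39 for Col4a2), as a description of arrays that share preparations.

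The mean declines of Col1a2, Col3a1 and Postn were deeper in the male preparations, by differences that did not pass the test. From day 1 to day 14 Col1a2 changed by a mean of -2.99 in males and -0.98 in females, Col3a1 by -4.42 and -1.55, and Postn by -3.19 and -1.65. For Col1a1 the means were -1.33 and -0.96, for Lox -1.74 and -1.46 and for Pcolce2 -2.27 and -1.69. None of the 9 differences between the sexes in the change to day 14 passed the limma test, and 0% of all genes did, with 2 of 9 at an unadjusted p under 0.05 (6.87% of all genes) and 0 of 9 with a trended and robust spread. The difference was -2.01 for Col1a2 (95% interval -3.26 to -0.76, adjusted p = 0.401), -2.86 for Col3a1 (-4.82 to -0.91, adjusted p = 0.441) and -1.53 for Postn (-3.43 to 0.36, adjusted p = 0.816). Without male 2, the difference for Col1a2 passed (-2.73, adjusted p = 0.018), but males are then 1 pool per day, which the fit assumes to vary like the other groups.

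At day 14 itself, the level in males minus that in females was -1.93 for Col1a2 (adjusted p = 0.0613), -2.78 for Col3a1 (0.0811) and -1.33 for Postn (0.34). None of the 9 genes passed in limma, against 1.06% of all genes. At an unadjusted p under 0.05 there were 3 of 9, Col1a1 (-0.44, adjusted p = 0.282), Col1a2 and Col3a1, against 14.9% of all genes. With a trended and robust spread, 1 of 9 passed, Col1a2 (adjusted p = 0.0243), which also passed among genes with a group mean of at least 6 (0.0369). Without male 2, Col1a2 (-2.42, adjusted p = 0.00349) and Col3a1 (-3.79, adjusted p = 0.0434) passed, again with 1 male pool whose spread is taken from the other groups. At day 1 and day 7 the count was 0 of 9 (0.767% and 0.354% of all genes), with 0 and 1 of 9 at an unadjusted p under 0.05 (13.5% and 13.2% of all genes), and Col1a2 passed at day 7 without male 2, with the same 1 male pool (-1.47, adjusted p = 0.0485). The change from day 1 to day 7 gave 0 of 9 (0% of all genes), and so did all days together (0.177%), with 0 and 3 of 9 unadjusted (4.76% and 19.8% of all genes). Over all days Col1a2 passed with a trended and robust spread (-0.92, adjusted p = 0.0181). With 2 pools per sex, a difference between the sexes cannot be told apart from one between pools.

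The other genes of collagen metabolism were described from 10 lists, whose counts for day 14 against day 1 stand beside 6.8% of all genes falling and 7.59% rising. Of the other fibril-forming chains, 1 of 4 measured genes fell from day 1 to day 14, Col5a1, the usual partner of Col5a2 (-1.13 ± 0.18 SE, adjusted p = 0.00462), with 0 rising and a list median of -0.22. That call was lost without female 1 (adjusted p = 0.0616). Like Pcolce2, Col5a1 reached 4.79 at day 1 only, so its place in the table may rest on its day 1 levels. Of 12 further collagen chains, 2 fell and 0 rose (median -0.07): Col6a1 (-1.25, adjusted p = 0.00138) and Col6a2 (-1.17, 0.0148), chains of the beaded-filament collagen VI. Col6a1 passed with any 1 preparation left out, whereas Col6a2 was lost without female 1, female 2 or male 1 (adjusted p up to 0.123). From day 1 to day 14 the mean of Col6a2 went from 6.68 to 4.66 in males and from 6.41 to 6.09 in females.

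Of 11 measured basement membrane genes beside Col4a1 and Col4a2, 6 rose and 0 fell (median 0.49, against 0.01 for all genes and 7.59% of all genes rising). Lamb2, a laminin beta chain, rose by 1.21 ± 0.10 (SE, adjusted p = 0.00029) and passed with any 1 preparation left out. Lamb3 (0.97, adjusted p = 0.0277) and Lama5 (0.79, 0.0472) did not pass with the replicate block (0.0512 and 0.0786). In every preparation Lamb3 was dim at day 1. Lamb3 was lost without female 1, female 2 or male 2, and Lama5 without female 1, female 2 or male 1 (adjusted p up to 0.163 and 0.239). The count of 6 became 3 without female 2 or male 1 and 4 without female 1 or male 2, or with the block.

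**Figure D3:**
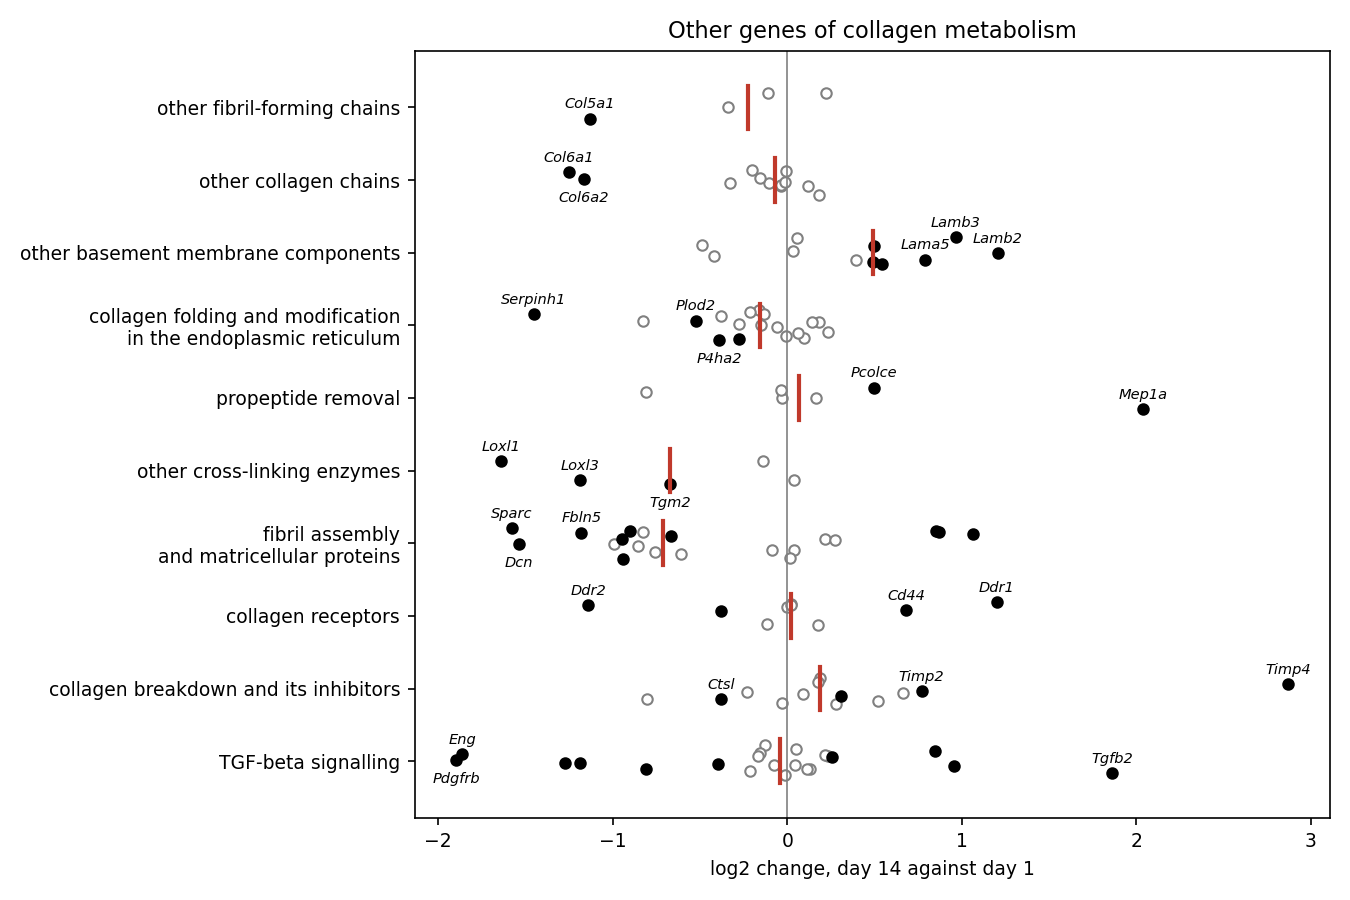
Log2 change from day 1 to day 14 (horizontal axis) of the measured genes in 10 lists of collagen metabolism, 1 circle per gene, filled where the adjusted p was under 0.05, with a red bar at the list's median; vertical scatter within a list carries no value. Basement membrane components hold 6 filled circles to the right of 0 and none to the left, and the other cross-linking enzymes hold 3 to the left and none to the right.

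Of 18 genes for collagen folding and modification inside the cell, 4 fell and 0 rose (median -0.16). Serpinh1, the collagen chaperone HSP47, fell by 1.45 ± 0.27 (SE, adjusted p = 0.00876), with mean changes of -2.42 in males and -0.49 in females, and was lost without female 1 or female 2 (adjusted p up to 0.104). The prolyl hydroxylase subunit P4ha2 (-0.39, adjusted p = 0.0156) and the lysyl hydroxylase Plod2 (-0.52, 0.0429, 0.0632 with the block) fell by less, and both failed whichever preparation was left out (adjusted p up to 0.154 and 0.305). The count of 4 became 0 without female 2, 1 without female 1 or male 1, and 2 without male 2.

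Enzymes outside the cell were mixed. Of 6 genes for propeptide removal, 2 rose and 0 fell (median 0.07): Mep1a, a meprin that can cleave procollagen (2.04, adjusted p = 0.00185), and Pcolce, the paralog of Pcolce2 (0.49 ± 0.07 SE, 0.00226). Pcolce and Pcolce2 thus moved in opposite directions, and the Pcolce call was lost without male 1 (adjusted p = 0.0508). Of the other 5 cross-linking enzymes, 3 fell and 0 rose (median -0.67), namely Loxl1 (-1.64, adjusted p = 0.0247), Loxl3 (-1.19, 0.0137) and the transglutaminase Tgm2 (-0.67, 0.00573). None of the 3 passed without male 1, and the count became 1 without male 2 and 2 without female 1 or female 2 (adjusted p up to 0.16 for Loxl1, 0.185 for Loxl3 and 0.108 for Tgm2).

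Of 20 fibril assembly and matricellular genes, 7 fell and 3 rose (median -0.71). Sparc, a collagen-binding matricellular protein (-1.58, adjusted p = 0.00739), and Dcn, the proteoglycan decorin (-1.54, 0.026), were lost without female 1 or female 2 (adjusted p up to 0.0909 and 0.174). From day 1 to day 14 the mean of Sparc went from 10.31 to 7.67 in males and from 10.27 to 9.76 in females. That of Dcn went from 10.81 to 8.045 in males and from 10.95 to 10.64 in females. Fbln5 (-1.18, adjusted p = 0.0448) was lost with the block (0.0656) and whichever preparation was left out (up to 0.278). Its mean went from 5.48 to 3.41 in males and from 5.52 to 5.23 in females. The count of 7 was 2 without female 1 or female 2, 5 without male 1 and 9 without male 2. Of 13 genes for collagen breakdown and its inhibitors, 3 rose and 1 fell (median 0.19). Timp4, a metalloproteinase inhibitor, rose by 2.87 ± 0.18 (SE, adjusted p = 7.51e-05) and passed whichever preparation was left out, when the count of rises became 1. In every preparation Timp4 was dim at day 1. Timp2 (0.77, adjusted p = 0.031) and the cathepsin gene Ctsl (-0.38, 0.00593) failed each time (adjusted p up to 0.161 and 0.0963).

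Of 9 collagen receptors, 2 rose and 2 fell (median 0.02), where 7.59% of all genes rose and 6.8% fell. The epithelial collagen receptor Ddr1 rose by 1.20 ± 0.10 (SE, adjusted p = 3e-04). Its mesenchymal relative Ddr2 fell by 1.14 ± 0.20 (0.00671), so that the mean changes of the pair had opposite signs. From day 1 to day 14 Ddr2 went from 4.64 to 2.96 in male 1 and from 5.03 to 2.67 in male 2. It moved less in the females, from 4.98 to 4.88 in female 1 and from 5.50 to 5.08 in female 2. Ddr1 passed with any 1 preparation left out, as did Cd44 (0.68, adjusted p = 0.000937), and Ddr2 was lost without female 1 or female 2 (adjusted p up to 0.076). The 2 falls became 0 without female 1 and 1 without any other preparation. Of 22 TGF-beta signalling genes, 4 rose and 6 fell (median -0.04). Tgfb2, a TGF-beta ligand, rose by 1.86 ± 0.11 (SE, adjusted p = 7.51e-05) and passed with any 1 preparation left out. Eng, a TGF-beta co-receptor (-1.86, adjusted p = 0.00674), and Pdgfrb, the PDGF receptor of mesenchymal cells (-1.90, 0.0226), were lost without female 1 or female 2 (adjusted p up to 0.0924 and 0.188). From day 1 to day 14 the mean of Eng went from 8.31 to 5.12 in males and from 8.47 to 7.94 in females. That of Pdgfrb went from 7.53 to 4.28 in males and from 7.30 to 6.75 in females. The 6 falls became 1 without female 1 or female 2 and 3 without male 1 or male 2, and the 4 rises became 2 without female 1 or male 2.

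With the sexes fitted together, day 14 calls were lost for Col6a1, Col6a2, Serpinh1, Plod2, Loxl1, Sparc, Dcn, Fbln5, Timp2, Ddr2, Cd44, Eng and Pdgfrb (adjusted p from 0.0625 to 0.186). The falls then became 0 for further collagen chains, 2 for folding, 2 for fibril assembly, 1 for receptors and 1 for TGF-beta signalling, and the rises became 1 each for fibril assembly, breakdown and receptors. Without the single day 14 array of male 1, Lama5 (adjusted p = 0.135), Loxl1 (0.0815), Fbln5 (0.119) and Timp2 (0.0506) were lost, with 4 falls left for fibril assembly and 1 rise for breakdown. Lama5 also failed with arrays centred (0.0509) or quantile-normalized again (0.055), and Dcn with a trended and robust spread (0.056). A trended and robust spread raised the rises for breakdown to 6, and the filter on dim genes, under which fewer genes are tested, left 1 fall for cross-linking and 1 for receptors.

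At day 7 against day 1, when 2.74% of all genes rose and 1.98% fell, fewer genes of these lists passed. Col5a1 already stood lower (-1.54 ± 0.18 SE, adjusted p = 0.00419), a call lost without female 1 or female 2 (up to 0.0733), and was the 1 of 4 other fibril-forming chains that fell. Of the 11 basement membrane genes, 2 rose, Lamb2 (0.96, adjusted p = 0.00278) and Col18a1 (0.42, 0.0113), and Lamb2 was lost without female 1 (0.0604) and Col18a1 whichever preparation was left out (up to 0.182). The one cross-linking enzyme of 5 that fell was Tgm2 (-0.49, adjusted p = 0.0444), which failed with the replicate block (0.0678) and whichever preparation was left out (up to 0.345). Of 18 folding genes, 0 passed in limma, with 8 at an unadjusted p under 0.05 (19.5% of all genes) and 2 lower with a trended and robust spread. Further calls were 1 fall of 12 further collagen chains, 1 rise of 6 genes for propeptide removal and 2 falls of 20 fibril assembly genes. Breakdown (13 genes) and receptors (9) had 1 rise and 1 fall each, and TGF-beta signalling (22) had 2 rises. With 1 preparation left out these became 0 to 1, but 0 to 3 for fibril assembly and 0 for receptors and the breakdown fall.

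Markers of other liver cells moved over the same days. Of 19 stellate cell and pericyte markers, 15 were measured, and 8 fell and 0 rose from day 1 to day 14 (median -1.10), where 6.8% of all genes fell. The vitamin A enzyme gene Lrat fell by 2.79 ± 0.40 (SE, adjusted p = 0.00311) and was lost without male 1 or male 2 (adjusted p up to 0.0604). The mean level of the 15 lay between 6.12 and 6.38 at day 1, 5.14 and 6.01 at day 7 and 4.46 and 5.90 at day 14. Its change to day 14 was -1.78 in male 1, -1.33 in male 2, -0.31 in female 1 and -0.95 in female 2. The mean of Col1a1, Col1a2, Col3a1 and Col5a2 changed by -2.70, -1.99, -0.90 and -1.09 in the same preparations. The count of 8 stellate markers became 3 without female 2, 5 without female 1 or male 1, 6 without male 2 and 5 with the sexes together, where Pdgfrb was lost. At day 7 against day 1, when 6 of the 9 collagen genes fell, 0 of the 15 stellate markers passed in limma (median -0.52), with 6 at an unadjusted p under 0.05 (19.5% of all genes) and 2 lower with the replicate block or a trended and robust spread.

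The counts that follow are for day 14 against day 1, where 7.59% of all genes rose and 6.8% fell. Of 8 measured fibroblast and myofibroblast markers out of 15, 1 rose and 1 fell (median -0.19), Gsn (0.92, adjusted p = 0.0119) and Fbln2 (-0.67, 0.0179). Gsn was lost without male 1 or male 2 and Fbln2 without female 1, female 2 or male 1 (adjusted p up to 0.155 and 0.148), with the sexes together (0.277) and without the day 14 array of male 1 (0.0594). The mean level of the 8 ranged from 6.13 to 6.35 at day 1 and from 5.28 to 6.52 at day 14, lowest in male 1 and male 2. It changed by -0.861 in male 1, -0.378 in male 2, 0.174 in female 1 and 0.153 in female 2. Of 12 measured endothelial markers out of 20, 5 fell and 0 rose (median -0.91). Emcn (-2.41, adjusted p = 0.00138) and Cdh5 (-2.40, 0.0018) passed with any 1 preparation left out. Like Pcolce2, Emcn reached 4.79 at day 1 only, so its place in the table may rest on those levels. The mean level of the 12 went from 5.64 to 6.22 at day 1 to 4.68 to 5.63 at day 14. This mean changed by -0.962 in male 1, -1.46 in male 2, -0.56 in female 1 and -0.837 in female 2. The count of 5 became 3 without female 1 or male 2, 2 without female 2, 4 without male 1, 3 with the sexes together and 2 without the day 14 array of male 1.

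No measured Kupffer cell, cholangiocyte or mesothelial marker passed as lower from day 1 to day 14 with all 4 preparations and no replicate block. Among all genes 7.59% rose over these days, and with the replicate block 1660 of 11861 passed in either direction. Of 16 measured Kupffer cell and macrophage markers out of 20, 2 rose (median 0.96), Csf1r (1.21, adjusted p = 0.0268) and Cd14 (0.33, 0.023), and 11 rose with the replicate block. Both named calls were lost whichever preparation was left out (adjusted p up to 0.149 and 0.23), and Cd14 also with the sexes together (0.278). The count of 2 was 8 without female 2 and 0 without male 1, male 2 or the day 14 array of male 1. Of 6 cholangiocyte markers out of 10, 2 rose (median 0.30), Krt19 (1.81, adjusted p = 0.00035) and Epcam (1.19, 0.00776), of which Epcam was lost without male 1 or male 2 (up to 0.127), and Krt7 (-0.56) passed as lower with the replicate block (0.018). Both Krt19 and Epcam were dim in every preparation at day 1, and Epcam reached 4.79 only in male 2 at day 14. Of 3 mesothelial markers out of 8, Msln rose from dim day 1 levels (1.56, adjusted p = 0.00138). The part of these cell types in the collagen changes was not tested. In such bulk samples, fewer cells of a type and less RNA per cell cannot be told apart.

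**Figure D4:**
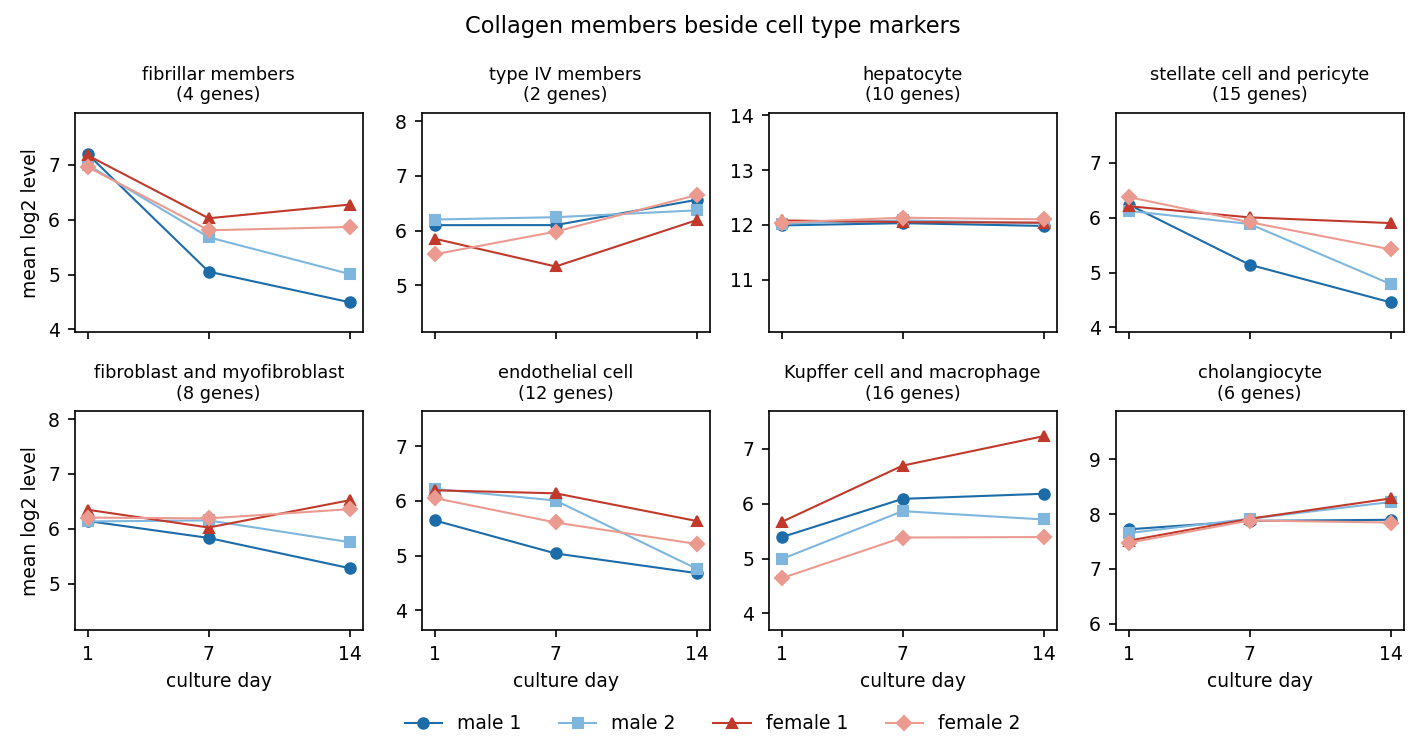
Mean log2 level (vertical axes, each spanning the same range of 4 log2 units) against culture day for the fibril-forming members, the type IV members and 6 marker lists, with 1 line per preparation. The fibril-forming members and the stellate cell and pericyte markers are lowest in male 1 and then male 2 at day 14. The fibroblast and endothelial markers show the same order, while hepatocyte markers stay between 11.98 and 12.13.

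The genes most like the mean of Col1a1, Col1a2, Col3a1 and Col5a2 over the 12 arrays were Id3 (Pearson r = 0.974), Gpx3 (0.959), Ifi27 (0.956), Adm (0.951), Loxl1 (0.945), Sparc (0.944), Dusp6 (0.942) and Ripply1 (0.94). Those most like the mean of Col4a1 and Col4a2 were Stxbp4 (0.93), Arntl2 (0.918), Cacna1i (0.915), Eif3c (0.905), Tbc1d9b (0.903), Pde7a (0.903), Rara (0.902) and Casp8 (0.898). These values describe 12 arrays of 4 preparations and carry no test, since the arrays share preparations and the genes were picked by their rank. The ranking left out the members themselves and predicted or clone-named genes. Among the members, Col1a1 ran closest to Pcolce2 (0.976) and Lox (0.959), and Pcolce2 and Lox correlated at 0.963. Col5a2 was nearer to Col1a1 (0.853) than to Col3a1 (0.531).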

How the data were processed

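The values, deposited on the log2 scale, give 1 level for each probe set on each array. Per the submitters' processing notes, RMA (background correction, normalization and summary of probes), Transcriptome Analysis Console 4.0 and Partek 7.0 were used, with no role stated. Labelling used an Affymetrix whole-transcript kit per the labels. Array annotation, build and filters: not given in the sources used here. Of 13081 probe sets, 11889 had 1 symbol, 0 several and 1192 none, and for 19 symbols the probe set with the highest mean was kept, giving 11861 genes.

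Groups came from the labels. limma 3.58.1 in R 4.3.3 fitted 1 mean per sex-by-day group (6 residual degrees of freedom); day changes average the sexes. Sex over all days used 4 preparation means. P-values were adjusted by Benjamini-Hochberg over all genes (threshold 0.05). The fit was run on simulated data with independent arrays and no preparation effect, so that run did not check the pairing. The same pools were sampled at each day, so arrays are paired by preparation; deviations from group means correlated between days at 0.0359 to 0.324. Alternatives were a preparation block, a trended and robust spread, 2 other scalings, the mean over probe sets, a filter on dim genes, sexes together, each preparation left out and, added after seeing the data, 1 array left out. Arrays limit precision by their number. Named genes of a list were the largest changes among those that passed, up to 3 for pathways and 2 for markers. Members and lists were chosen with earlier results of these data known. Promoter sequences are from RefSeq (GRCm38.p6), which held windows for 6 of the 10 genes, and motif counts used 280 bases.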

Additional observations from a re-analysis of the deposited data

Results flagged for a closer look

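Among the 9 genes at 3 days, 27 groups of 4 arrays were searched for an array far from the others, and 1 was found: Col4a2 at day 7 in female 1, at 4.96, where the others lay between 5.74 and 5.88. Its gap to the nearest array was 0.846 of the whole range. Chance marks about 1 in 20 such groups. Without female 1, the Col4a2 change from day 7 to day 14 stayed positive and did not pass the test.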

How the results depend on the processing

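Between days 1 and 14 the changes of all 9 genes kept their sign under every alternative run, and Col1a1, Col3a1, Lox and Pcolce2 stayed past the threshold in each one that could be run on them. Genes with a group mean under 6 in every group (Col5a2, Pcolce2, Postn) had no value under the filter on dim genes. With the preparation as a replicate block, 1 of the 9 genes (Postn) passed from day 7 to day 14, where 0 did otherwise, and 2 calls were gained in all. Over all genes, 560 passed at day 7 against day 1, 250 with the sexes together, 956 with a trended and robust spread and 40 to 75 with 1 preparation left out. From day 7 to day 14, 58 passed, 111 with the filter, 101 with the block, 15 with the sexes together, 309 with a trended and robust spread, 9 without the male 1 array of day 14 and 0 to 8 with 1 preparation left out. From day 1 to day 14, 1706 passed, and 494 to 826 with 1 preparation left out. With 1 preparation left out, the calls among the 9 genes ranged from 2 to 3 at day 7 and from 5 to 6 at day 14 against day 1. For the sexes they ranged from 0 to 2 at day 14, 0 to 1 at day 7 and 0 to 1 in the change to day 14. At day 14, 1 of 9 passed between the sexes with the filter and 1 with a trended and robust spread, which also gave 1 over all days. Among the day changes, signs turned only with a preparation left out and for changes that never passed: Col1a1 (-0.16 to 0.13) and Lox (-0.035 to 0.30) from day 7 to day 14 and Col4a1 (-0.13 to 0.50) to day 7. Beyond fewer samples, the cause of these shifts was not tested. Sex differences that the text does not name also turned under some settings. Some later levels were dim, as were the day 1 levels of Krt19, Epcam, Msln, Timp4 and Lamb3, and their folds are less certain.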
